A study of Saccharomyces cerevisiae W303 with 3 samples.

Results

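The genes described here mostly encode proteases of the yeast vacuole or small proteins that inhibit them. They were chosen by name, 8 protease genes (PEP4, PRB1, PRC1, CPS1, LAP4, LAP3, APE3 and DAP2) and 2 inhibitor genes (PAI3 and PBI2), and all 10 were found among the 6252 genes used on the arrays. RNA of W303, a haploid laboratory strain of Saccharomyces cerevisiae, was taken from 3 independent continuous cultures at 240 generations, and from the same cultures at 40 generations. All samples share the genotype of W303 (auxotrophic for adenine, histidine, leucine, tryptophan and uracil, and with a can1 allele), and grew at a constant temperature in synthetic minimal medium with glycerol as the main carbon source, without an added agent other than antibiotics against bacteria. Each culture is a population and not a clone, and the evolved populations differ in mutations by the study's own account, so that the effect of a mutation and that of a culture cannot be told apart. For each culture, the RNA of both time points was hybridized together to 2 arrays, with Cy3 and Cy5 exchanged between them. Each culture is 1 sample per time point, and p values measure the spread over the 3 cultures.

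The vacuole is the degradative compartment of the yeast cell. Several of its proteases are made as inactive precursors that pass through the secretory route or, for Lap4, are taken up directly from the cytoplasm. Proteinase A (Pep4) stands at the head of an activation cascade: it activates itself and proteinase B (Prb1), and both process the precursors of other vacuolar hydrolases, among them carboxypeptidase Y (Prc1). The inhibitors reside in the cytosol, IA3 (Pai3) acting on proteinase A and IB2 (Pbi2) on proteinase B. The system supplies amino acids from protein breakdown and is known for its role under starvation and in autophagy.

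Of the 10 genes, LAP3, LAP4 and DAP2 rose and PAI3 fell, while PEP4, PRB1, PRC1, CPS1, APE3 and PBI2 did not pass the test. A log2 ratio of 1 stands for 2 times as much signal at 240 generations. Genes above background (signal over the local background by more than 2 background SDs) at one of the time points on 4 or more arrays entered the limma fit, in which the mean of the 3 cultures was set against 0 and p values were adjusted after Benjamini and Hochberg (threshold 0.05). All 10 members passed this filter, were above background at both time points on all 6 arrays and had no saturated pixels. Among the 5495 genes tested, 14% were called higher and 13.8% lower, that is 27.8% in either direction, against 3 higher and 1 lower of the 10 members, and nothing particular to the members is read from these counts. Without Replicate 1 the members counted 6 higher and 3 lower, against 22.3% and 22.8% of all genes in that fit. Without Replicate 2 or Replicate 3 they counted 1 higher and 1 lower, against 2.29% higher and 3.15% lower of all genes without Replicate 2, and 5.31% and 6.84% without Replicate 3. The median log2 ratio was 0.15 over the 8 protease genes and 0.14 over the 10 members, against -0.01 over all genes tested.

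The 6 arrays gave median spot intensities of 518 to 915.5 in Cy5 and of 577 to 1026.5 in Cy3, and 83.9% to 91.5% of the genes were above background. The dye-swap arrays of a culture had r = 0.948 to 0.96 across genes, and ACT1, the actin gene, had a mean log2 ratio near 0 (0.02 ± 0.11, SD, n = 3, adjusted p = 0.91). Of all 1526 calls, 50.3% were higher. With each array centred on its median there were 1638 calls, of which 39.5% were higher. The methods give the strain as mating type a. Of 6 a-specific genes, STE6 was above background on all arrays, and STE2 on 4 arrays at 40 generations and 2 at 240 generations. The other 4 (AGA2, BAR1, MFA1 and MFA2) were not above background on enough arrays to be tested. At 40 generations BAR1 was above background on 3 arrays and MFA1 on 2, but AGA2 and MFA2 were on none of the 6 arrays at either time point. All 4 alpha-specific genes (STE3, SAG1, MF(ALPHA)1 and MF(ALPHA)2) were above background on 6 of 6 arrays at both time points, and 3 of them rose. The part of this in the results below was not tested. Since the RNA is from whole populations, less RNA per cell and fewer cells with that RNA cannot be told apart.

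**Figure D1:**
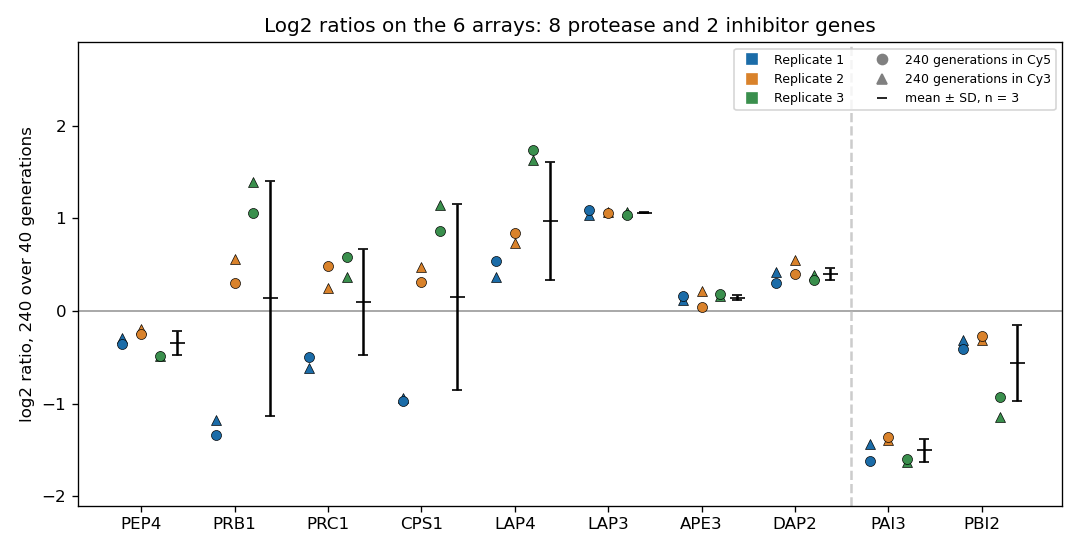
Log2 ratio of 240 over 40 generations (vertical axis) for the 8 protease genes and, right of the dashed line, the 2 inhibitor genes. Each symbol is 1 array, colored by culture and shaped by dye, and the black bars give the mean ± SD of the 3 cultures; LAP3 lies near 1.06 on every array, while PRB1 and CPS1 lie below 0 in Replicate 1 and above 0 in Replicates 2 and 3.

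Within the activation cascade, neither PEP4 nor PRB1 passed the test, and they differed in their spread over the cultures. PEP4, the gene of proteinase A, had normalized intensities of 10900, 12200 and 8690 at 240 generations in Replicates 1, 2 and 3, against 13700, 14200 and 12100 at 40 generations. The intensity was lower at 240 generations in every culture, although the ranges of the time points overlapped. The log2 ratio was -0.34 ± 0.13 (SD, n = 3, adjusted p = 0.073), with a 95% confidence interval of -0.62 to -0.06 before adjustment, and did not pass the test. PEP4 passed with median centring (-0.55, adjusted p = 0.023), with the mean of the pixels (-0.34, adjusted p = 0.046), with the gene length correction (-0.39, adjusted p = 0.042) and without Replicate 1 (-0.35, adjusted p = 0.039). It did not pass in the other 13 of 17 alternatives, among them those without Replicate 2 (-0.40, adjusted p = 0.24) or Replicate 3 (-0.27, adjusted p = 0.35). With median centring 18% of all genes were called lower and 11.8% higher. Intensities are in scanner units after normalization and belong to one probe each, so they are not compared between genes.

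PRB1, the gene of the serine protease proteinase B, had intensities of 1750, 4620 and 2960 at 240 generations in the same order, against 4190, 3420 and 1260 at 40 generations. Its transcript was thus lower at 240 generations in Replicate 1 and higher in the other 2 cultures. The log2 ratios were -1.26, 0.43 and 1.23, with a mean of 0.14 ± 1.27 (SD, n = 3, adjusted p = 0.84), and the 95% interval of the mean ran from -0.97 to 1.24. This SD was at percentile 99.9 of all genes tested. Without Replicate 1 the mean was 0.83 (adjusted p = 0.0089), and without Replicate 3 it was -0.41 (adjusted p = 0.46).

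The cultures differed in PRB1 at both time points. The intensity at 40 generations spanned 1.73 on the log2 scale between Replicate 1, the highest, and Replicate 3, the lowest, against a median span of 0.40 over all genes tested. At 240 generations the span was 1.39 on the log2 scale, with Replicate 2 highest and Replicate 1 lowest, against a median of 0.52. Wide spans at both time points were not particular to PRB1. PAI3 spanned 1.04 at 40 and 1.29 at 240 generations, DAP2 0.81 and 0.92, and PRC1 0.78 and 0.89. Intensities of different cultures come from different arrays, which were brought to a common distribution, so these spans are less direct than the ratios within an array.

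The carboxypeptidase genes had values resembling those of PRB1. CPS1, which encodes carboxypeptidase S, had intensities of 647, 1520 and 2080 at 240 generations in Replicates 1, 2 and 3, against 1260, 1160 and 1030 at 40 generations. Here the cultures lay close together at 40 generations, with a span of 0.29 on the log2 scale, and far apart at 240 generations, with a span of 1.68. The log2 ratios of CPS1 were -0.96, 0.39 and 1.01, with a mean of 0.15 ± 1.005 (SD, n = 3, adjusted p = 0.78).

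PRC1, the gene of carboxypeptidase Y, had intensities of 8880, 16500 and 10600 at 240 generations, against 13100, 12800 and 7650 at 40 generations. Replicate 1 was again the culture with less signal at 240 generations. Its log2 ratios of -0.56, 0.37 and 0.47 averaged 0.09 ± 0.57 (SD, n = 3, adjusted p = 0.77). The interval of the mean ran from -0.45 to 0.64 for PRC1 and from -0.74 to 1.03 for CPS1, and so included 0 for both. Without Replicate 1, the only culture below 0 for both genes, CPS1 passed the test with 0.70 (adjusted p = 0.0095) and PRC1 with 0.42 (adjusted p = 0.015). In that fit 22.3% of all genes were called higher and 22.8% lower. CPS1 did not pass without Replicate 2 (0.02, adjusted p = 0.98) or Replicate 3 (-0.28, adjusted p = 0.555). Nor did PRC1 (-0.04, adjusted p = 0.94, and -0.10, adjusted p = 0.83).

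Both members named LAP, which are aminopeptidase genes, rose at 240 generations, while LAP2, which is not a member, fell. LAP4, also APE1, encodes aminopeptidase I, which reaches the vacuole directly from the cytoplasm. Its intensities were 18100, 20700 and 32200 at 240 generations in Replicates 1, 2 and 3, against 13200, 12000 and 10000 at 40 generations, without overlap. The log2 ratios were 0.45, 0.79 and 1.69, and the mean of 0.97 ± 0.64 passed the test (SD, n = 3, adjusted p = 0.035), a 1.96-fold change with a 95% interval of 0.38 to 1.57 on the log2 scale. This call was lost without Replicate 2 (adjusted p = 0.10), without Replicate 3 (0.62, adjusted p = 0.074), with median centring (adjusted p = 0.060), with the mean of the pixels (adjusted p = 0.057) and with no filter on dim probes (adjusted p = 0.060).

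LAP3 encodes a cysteine aminopeptidase, the yeast bleomycin hydrolase, which is found mainly in the cytosol and so is a member by name and enzyme class more than by place. It had intensities of 14500, 14900 and 12200 at 240 generations, against 6950, 7130 and 5860 at 40 generations. The 3 cultures all stood at about the same ratio, with log2 ratios of 1.065, 1.062 and 1.055 and, by array, between 1.035 and 1.095. The mean was 1.06 ± 0.0047 (SD, n = 3, adjusted p = 0.0038), a 2.09-fold change. Its SD was at percentile 0.036 of all genes tested, below the gap of up to 0.06 between its own dye-swap arrays. LAP3 passed the test under all 17 alternatives, with log2 ratios of 0.88 to 1.08.

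The remaining aminopeptidase genes changed little. DAP2 encodes dipeptidyl aminopeptidase B, an integral protein of the vacuolar membrane. Its intensities of 4280, 5130 and 2700 at 240 generations stood against 3330, 3690 and 2110 at 40 generations, higher in every culture but with overlapping ranges. The log2 ratios were 0.36, 0.47 and 0.36, and the mean of 0.40 ± 0.07 passed the test (SD, n = 3, adjusted p = 0.043), a 1.32-fold change. The call was lost in 8 of 17 alternatives, among them those without Replicate 2 (adjusted p = 0.28) or Replicate 3 (adjusted p = 0.17) and the authors' log2 ratios (adjusted p = 0.065).

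APE3, the gene of aminopeptidase Y, had intensities of 20400, 21600 and 18400 at 240 generations, against 18500, 19700 and 16300 at 40 generations. It was the member with the smallest difference that had one sign on every array. Its log2 ratio was 0.15 ± 0.02 (SD, n = 3, adjusted p = 0.33), with an interval of -0.11 to 0.41, and it was -0.09 with median centring.

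**Figure D2:**
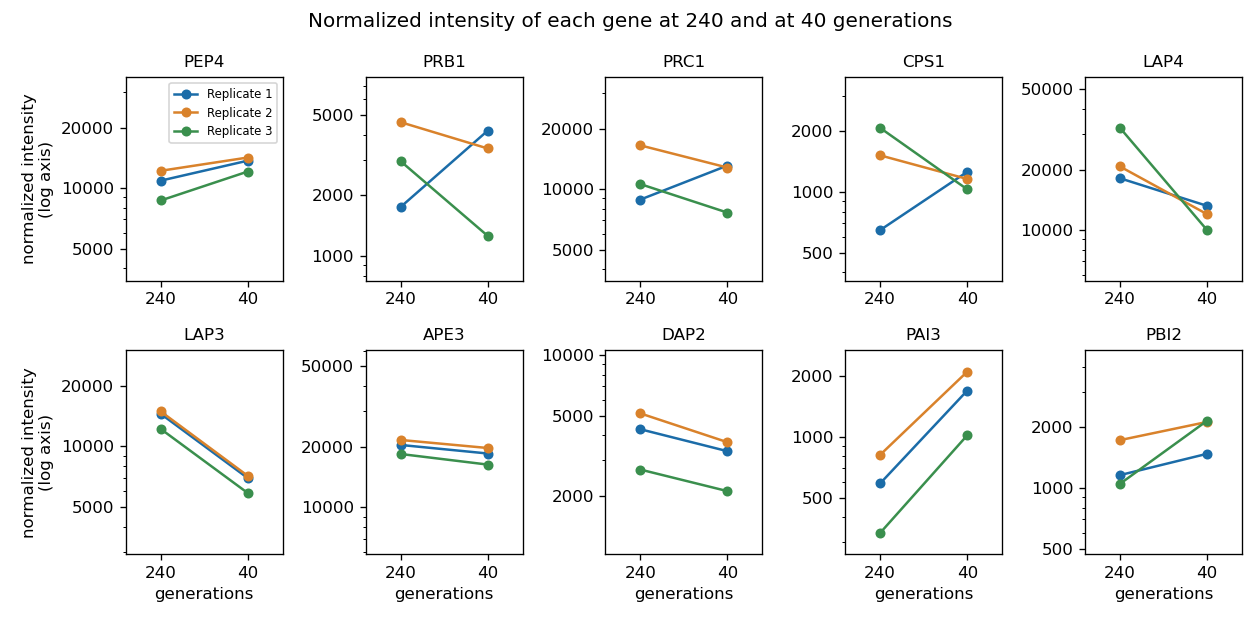
Normalized intensity (vertical log axis, scanner units) of each of the 10 genes at 240 and at 40 generations (horizontal axis), with 1 line per culture. The lines of PRB1, PRC1 and CPS1 slope one way in Replicate 1 and the other way in Replicates 2 and 3, those of LAP3, LAP4 and DAP2 all stand higher at 240 generations, and those of PAI3 stand between 334 and 815 at 240 generations and between 1020 and 2110 at 40 generations.

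Among the inhibitor genes, PAI3 fell in every culture. PAI3 encodes IA3, the inhibitor of proteinase A, which folds only when it binds its target. It had intensities of 588, 815 and 334 at 240 generations in Replicates 1, 2 and 3, against 1700, 2110 and 1020 at 40 generations. The ranges did not overlap, and the 3 cultures kept their order at both time points. The log2 ratios were -1.53, -1.37 and -1.61, with a mean of -1.51 ± 0.12 (SD, n = 3, adjusted p = 0.0018), and the signal was thus 2.84-fold lower. Only 1.22% of all genes tested had a mean as low, and PAI3 passed the test under all 17 alternatives, with log2 ratios of -1.67 to -1.15. PAI3 is one of the stress genes that the study itself names as downregulated, so its fall is not independent of that choice.

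PBI2, the gene of the proteinase B inhibitor, whose product also takes part with thioredoxin in vacuole inheritance and fusion, had intensities of 1160, 1730 and 1050 at 240 generations, against 1480, 2130 and 2160 at 40 generations. The signal was lower at 240 generations in each culture, most in Replicate 3. Its log2 ratios were -0.36, -0.29 and -1.04, and the mean of -0.56 ± 0.41 did not pass the test (SD, n = 3, adjusted p = 0.062), with an interval of -0.997 to -0.13 before adjustment. Without Replicate 1 it passed (-0.67, adjusted p = 0.017), as it did with median centring (adjusted p = 0.041) and from the arrays with 240 generations in Cy5 alone (adjusted p = 0.047). It did not pass in the other 14 of 17 alternatives, among them those without Replicate 2 (-0.70, adjusted p = 0.13) or Replicate 3 (-0.33, adjusted p = 0.27).

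Intensities of the time points did not overlap for 3 of the 10 members, LAP4, LAP3 and PAI3, against 32.4% of all genes tested. The log2 ratio had the same sign on all 6 arrays for 7 members, against 53.6% of all genes. It was positive for 4 of them (LAP4, LAP3, APE3 and DAP2), against 25.9% of all genes, and negative for 3 (PEP4, PAI3 and PBI2), against 27.7%. The other members were PRB1, PRC1 and CPS1. By criteria for a large and uniform change (mean of 0.9 or more in size, limma's unadjusted p not over 0.05, SD not over 0.8 and SD divided by the squared mean not over 0.4), LAP3 was higher and PAI3 lower, against 2.42% and 3.33% of all genes. LAP4 met the limits on the mean, the p and the SD but not the last one.

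**Figure D3:**
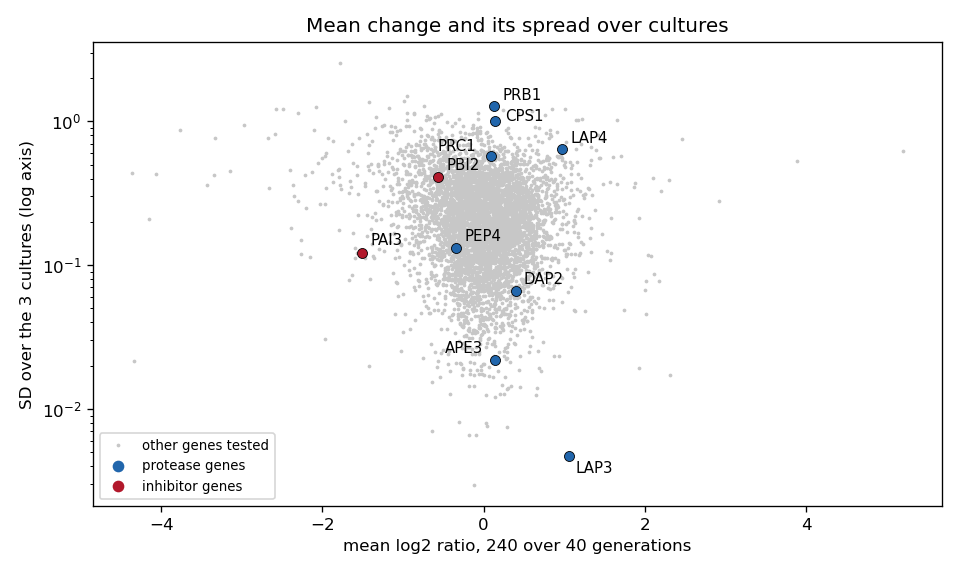
Mean log2 ratio of 240 over 40 generations (horizontal axis) and its SD over the 3 cultures (vertical log axis) for all genes tested (grey), the protease genes (blue) and the inhibitor genes (red). The members reach from LAP3, with an SD of 0.0047, to PRB1, with an SD of 1.27, at means of 1.06 and 0.14.

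Of the 8 protease genes, PRB1, CPS1, PRC1 and LAP4 differed most between cultures. PRB1 stood 2.09 below the mean of the other 2 cultures in Replicate 1 on the log2 scale (-2.16 and -2.02 by dye orientation), a value that only 0.182% of all genes tested reached, and 1.64 above it in Replicate 3 (1.70 and 1.58), at percentile 99.9. CPS1 had differences of -1.66 in Replicate 1 and 1.29 in Replicate 3, at percentiles 0.601 and 99.8. LAP4 and PRC1 showed the same order with smaller differences, -0.79 and -0.98 in Replicate 1, and 1.07 and 0.57 in Replicate 3. PBI2 went the other way in Replicate 3, with a difference of -0.71. The other 5 members, PEP4, LAP3, APE3, DAP2 and PAI3, differed by at most 0.21 in any culture. Each culture is 1 sample, so these differences were not tested. The 2 arrays of a culture differed by at most 0.33 for a member, and the 2 spots of a probe by at most 0.41.

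The 4 members that were lowest in Replicate 1 and highest in Replicate 3, with Replicate 2 between, compare with 22.6% of all genes tested that had this order. Gene length moved with this order. All 4 lie between 1500 and 2000 bp, where 30.1% of 871 genes had it, and the differences of Replicate 1 and Replicate 3 from the other cultures had medians of -0.16 and 0.12 in that class. Among 107 genes of up to 300 bp, to which PAI3 and PBI2 belong, the medians were 0.25 and -0.31, and 3.74% had that order. With each culture corrected for gene length by a loess curve, PRB1 kept log2 ratios of -1.12, 0.42 and 1.16 and CPS1 of -0.85, 0.36 and 0.93. Those of PAI3 were -1.42, -1.17 and -1.16 after this correction (mean -1.25, adjusted p = 0.0019), those of PBI2 -0.30, -0.13 and -0.63, and PEP4 passed the test with a mean of -0.39 (adjusted p = 0.042).

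**Figure D4:**
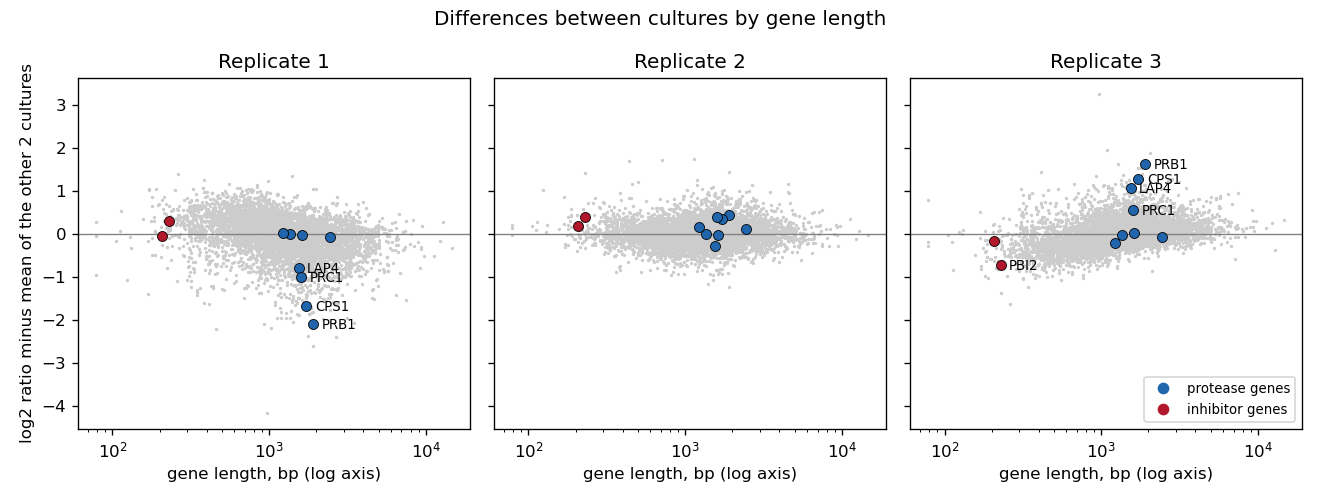
Log2 ratio of each culture minus the mean of the other 2 cultures (vertical axis) by gene length (horizontal log axis, bp) for all genes with a length (grey), the protease genes (blue) and the inhibitor genes (red). PRB1, CPS1, PRC1 and LAP4 stand below 0 in Replicate 1 and above 0 in Replicate 3, farther out than the median of genes of like length, while the other protease genes stand near 0.

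Since a protease and its inhibitor were measured on the same array, their log2 ratios could be subtracted array by array. PEP4 minus PAI3 was 1.21, 1.15 and 1.13 in Replicates 1, 2 and 3, and between 1.11 and 1.27 on the 6 arrays. The inhibitor transcript was thus lower relative to that of its target by about the same amount in every culture, with a mean of 1.16 ± 0.04 (SD, n = 3). PRB1 minus PBI2 was -0.90, 0.73 and 2.27, negative in Replicate 1 and positive in the other cultures, with a mean of 0.70 ± 1.58. The further pair, PRC1 and TFS1, the gene of a cytosolic inhibitor of carboxypeptidase Y, gave 0.42, 0.59 and 1.14, positive on 6 of 6 arrays, with a mean of 0.72 ± 0.38. TFS1 itself fell (-0.62 ± 0.38, adjusted p = 0.043). These pairs were formed after the values were seen and were not tested, and transcript ratios do not give the amounts of the proteins.

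**Figure D5:**
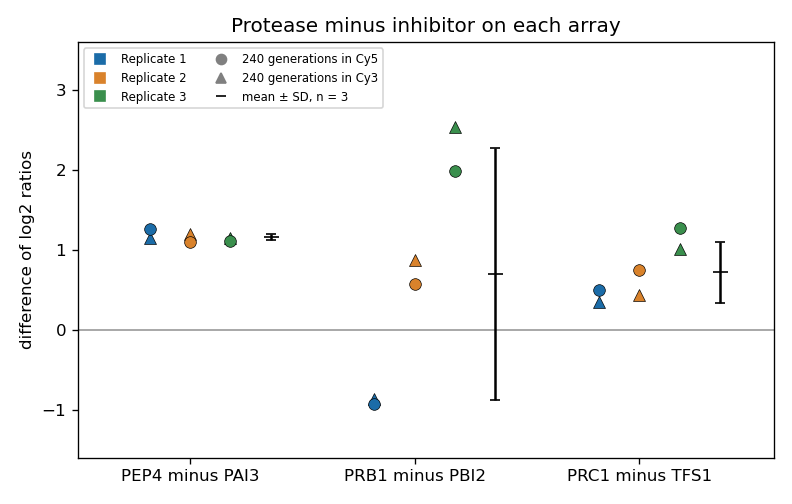
Difference between the log2 ratio of a protease gene and that of its inhibitor gene on the same array (vertical axis) for 3 pairs, by culture (color) and dye (shape), with the mean ± SD of the 3 cultures. PEP4 minus PAI3 lies between 1.11 and 1.27 on all arrays, while PRB1 minus PBI2 runs from -0.93 to 2.54.

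The genes most like a member were sought over the 6 arrays by the Euclidean distance of their log2 ratios. The gene closest to PRB1 was CPS1 (distance 0.541), followed by PTR2, which encodes the transporter of di- and tripeptides (0.771, with -0.82, 0.64 and 1.45 in Replicates 1, 2 and 3), and BBC1, which encodes a protein of actin patches (0.791). The genes closest to PAI3 were DIA1 (0.265), NQM1, which encodes a transaldolase (0.372), and RTC3 (0.407), with log2 ratios between -1.675 and -1.352 in every culture. For PEP4 they were AAD14, an aryl-alcohol dehydrogenase gene (0.0885), PRX1, a mitochondrial peroxiredoxin gene (0.137), and KKQ8, a kinase gene (0.15). Small values such as those of PEP4 have close neighbors by this measure because many genes lie near 0.

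Of 10 genes of other vacuolar hydrolases, 2 rose and none fell, against 14% and 13.8% of all genes tested. The other 8 did not pass the test, and the median log2 ratio was -0.11. PPN2, a polyphosphatase gene, had 0.42 ± 0.11 (SD, n = 3, adjusted p = 0.041), and ATG42, which encodes a serine carboxypeptidase related to Prc1, had 0.39 ± 0.07 (adjusted p = 0.046). The ATG42 values of 0.32, 0.45 and 0.40 had 1 sign in all cultures, whereas PRC1 changed sign between Replicate 1 and the others.

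A list of further peptidases that are not members, with the inhibitor gene TFS1, included 17 tested of 20 listed genes. Of these, 2 rose and 7 fell, TFS1 among them, against 14% and 13.8% of all genes, and the median was -0.21. YPS1 and YPS6, which encode aspartic proteases of the cell surface, the family of Pep4, had -1.09 ± 0.80 (SD, n = 3, adjusted p = 0.043) and -0.92 ± 0.22 (adjusted p = 0.0089). LAP2, which encodes a leucyl aminopeptidase with epoxide hydrolase activity, had -0.75 ± 0.06 (adjusted p = 0.0092). YSP3, a gene of a subtilisin-type protease, had 0.82 ± 0.23 (adjusted p = 0.012), with 0.61, 1.07 and 0.77 in Replicates 1, 2 and 3. RRT12, a further peptidase gene of this list, fell (-0.46 ± 0.03, adjusted p = 0.029), with -0.43, -0.47 and -0.48 in the same order.

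Few genes were called in the lists of the routes by which the proteases reach the vacuole, against 27.8% of all genes tested. Of 30 genes of the sorting and fusion machinery of the carboxypeptidase Y route, VPS4, the ATPase gene of multivesicular body sorting, rose (0.87 ± 0.08, SD, n = 3, adjusted p = 0.0066), PEP7, a gene of the endosomal fusion machinery, fell (-0.41 ± 0.01, adjusted p = 0.037), and 28 did not pass, with a median of -0.05. Of 22 genes of the autophagy core and the direct route taken by Lap4, ATG1, the kinase gene, fell (-0.96 ± 0.45, adjusted p = 0.019) and 21 did not pass. ATG19, the gene of the receptor that binds Lap4, had -0.04 ± 0.14 (adjusted p = 0.82).

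Of 19 genes of the vacuolar H+-ATPase and its assembly, which acidifies the vacuole, 3 rose, 2 fell and 14 did not pass. VMA4 (0.78 ± 0.17, SD, n = 3, adjusted p = 0.011), VMA8 (0.72 ± 0.09, adjusted p = 0.011) and VMA10 (0.75 ± 0.46, adjusted p = 0.037) encode subunits of the peripheral part. Not every gene of that part rose, since VMA2 had -0.08 ± 0.78 (adjusted p = 0.86). VPH1, the vacuolar form of a membrane subunit, fell (-0.64 ± 0.11, adjusted p = 0.014). Of 15 genes of vacuolar amino acid transporters, which move the products of proteolysis, 4 rose and 2 fell. AVT1 had 0.88 ± 0.51 (adjusted p = 0.028) and AVT7 0.61 ± 0.12 (adjusted p = 0.017). ATG22 had -0.94 ± 0.69 (adjusted p = 0.045) and VBA2 -0.81 ± 0.14 (adjusted p = 0.0092). The list was not divided by direction of transport, and no change of uptake or export is read from these genes. These lists were written from general knowledge and describe only their own counts beside the 27.8% of all genes.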

How the data were processed

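The authors labeled total RNA by amplification with Cy3 and Cy5, hybridized it to Agilent yeast arrays and read the spots with GenePix Pro; the deposited array files hold pixel intensity values of spot and local background without normalization, the percent of saturated pixels and a score, the flag of spots not found. A further table holds the authors' log2 ratios, normalized in Acuity by a method not given in the sources used here; exact zeros in it were treated as missing. Dyes were taken from the array file names, and the ratio of 240 over 40 generations follows the methods, although the table's columns name 40 first. Here, in R 4.3.3 with limma 3.58.1, background was corrected on medians with normexp (offset 50), each array was normalized with loess with control spots at weight 0, and the 2 spots of a gene and the 2 arrays of a culture were averaged. The 3 cultures were fitted by lmFit, moderated by eBayes with 3.73 prior degrees of freedom, over all 5495 genes, so p values of genes are limma's. The criteria for a uniform change are those of the study's results text. Intensities were scaled between arrays by their average signal (Aquantile). Both time points of a culture share its arrays, so the pairing is part of the measurement. Of 6252 genes, 5753 had a RefSeq entry, which gave lengths and current names. The array files name no genome build, so no coordinates are given. The number of cultures, 3, limits the precision. The fit was also run on simulated data in which genes and cultures varied independently, and not every changed gene was called there. How the fit behaves when genes vary together was not tested. Named are the 10 members, in each list up to 4 genes with the largest mean among those called, the 3 genes closest to PRB1, PAI3 and PEP4, ACT1, and the mating-type genes. TFS1, ATG19, RRT12 and genes named in the last section were added after their values were seen. The members and lists were chosen with earlier results of these data known. The alternatives were other background corrections, pixel means, centring on medians, between-array scaling, removal of spots not found, other filters on dim probes, 1 dye orientation, a trended robust prior, unpaired time points, gene length, the authors' ratios and each replicate left out. The planned motif search was not run. Figures were drawn in Python 3.11.15.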

Additional observations from a re-analysis of the deposited data

How the results depend on the processing

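The number of called genes depended on the replicates. It lay between 126 and 1223 for genes higher and between 173 and 1251 for genes lower when 1 replicate was left out, against 768 and 758 with all 3, and was 188 and 243 without pairing of the time points (no replicate block). Of the 10 members, 1 to 6 were higher and 1 to 3 lower with 1 replicate left out, and 1 was higher and 3 were lower with median centring. The count of lower members was 2 with the mean of the pixels, with 240 generations in Cy5 alone and with the gene length correction. The members that met the 4 criteria numbered 2, with 3 for the criteria of the methods alone. Signs turned for PRB1 (-0.41 to 0.83 with 1 replicate left out), CPS1 (-0.28 to 0.70) and PRC1 (-0.10 to 0.42, -0.0817 with median centring and -0.0011 with 240 generations in Cy3 alone), and for APE3 with median centring (-0.0863), none of which passed with all 3 replicates. The cause was not tested, and a fit with 1 replicate left out rests on fewer cultures. Over 10 members and 17 alternatives, 139 values kept direction and side of the threshold, 13 lost the call, 10 gained it and 8 turned sign. LAP3 and PAI3 kept their calls in all.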

Other observations

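ATG15, which encodes the vacuolar lipase of autophagic bodies, had log2 ratios of -0.70, 0.57 and 0.98 in Replicates 1, 2 and 3 (mean 0.28 ± 0.88, SD, n = 3, adjusted p = 0.53), and PFF1, a vacuolar membrane metalloprotease gene, had -1.02, 0.36 and 0.40 (-0.08 ± 0.81, adjusted p = 0.85). AVT6, an amino acid exporter gene of the vacuole, had -0.29, 0.89 and 1.47 (0.69 ± 0.90, adjusted p = 0.16), and VMA2, the gene of a peripheral subunit of the H+-ATPase, -0.98, 0.41 and 0.34 (-0.08 ± 0.78, adjusted p = 0.86). Each was lowest in Replicate 1, as were PRB1, PRC1, CPS1 and LAP4 and 42.1% of all genes tested, while 40.1% of all genes were highest there. Of the 19 genes of the H+-ATPase list, 9 were lowest and 9 were highest in Replicate 1, the second kind including VMA10 (1.27, 0.61 and 0.37) and VMA13 (0.53, 0.03 and -0.12). Of 10 other vacuolar hydrolases, 7 were lowest and 1 was highest in Replicate 1, and of 15 amino acid transporters, 10 and 4. The genes named here were picked after their values were seen, and the differences between cultures were not tested.

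Of 20 genes that adjoin a member on its chromosome, 19 were tested, of which 2 rose and 4 fell, against 14% and 13.8% of all genes. Next to PAI3, SIP18, a gene of a desiccation-related hydrophilin, fell (-0.82 ± 0.23, SD, n = 3, adjusted p = 0.012). SIP18, like PAI3, was listed as downregulated by the study, so its fall is not independent of that choice, while DDR48 on the other side had -0.06 ± 0.35 (adjusted p = 0.79). The neighbors of LAP3 did not pass the test, NAR1 with 0.25 ± 0.39 (adjusted p = 0.29) and KEX2 with 0.00048 ± 0.29 (adjusted p = 0.998). Those of PRB1, CIN8 with 0.21 ± 0.04 (adjusted p = 0.18) and SOM1 with -0.34 ± 0.10 (adjusted p = 0.069), had no change of sign between cultures like that of PRB1.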
